A study of Mus musculus with 21 samples.

Results

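Notochord progenitors made in culture (NotoPdiff) were compared with cultured neuromesodermal progenitors (NMPdiff) gene by gene, from the RNA level of each gene as FPKM, a fragment count scaled to transcript length and to the size of the library. A gene entered when it had at least 5 FPKM in either library, and the measure was the log2 ratio of FPKM + 1 in NotoPdiff over FPKM + 1 in NMPdiff. Of 23983 genes listed, 8848 entered, and 368 of these differed by 3-fold or more: 221 genes were higher in NotoPdiff (2.50% of those entered) and 147 were lower (1.66%). The higher group held most of the listed notochord and node markers, although its largest ratios also included genes outside that list, such as *Aldh1a2*, *Vtn* and *Sepp1*. Leaving out the sort gates *T* and *Noto* and the induced *Foxa2*, 21 of 24 entered markers were at least 3-fold higher, with a median log2 ratio of 3.22. With these genes the values were 23 of 27 and 3.19, and the median over all genes entered was −0.03. The gene lists were chosen with earlier results of these data known, so their counts are descriptions. The lower group held the genes of pluripotency and epiblast (13 of 18 entered), of the primitive streak (8 of 14) and of the anterior mesendoderm (6 of 9), and also a large set of amino acid transport and serine synthesis genes. Each side was 1 library, so the values below are descriptions of those 2 libraries: no replicate error could be formed and no test was made.

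Both libraries came from 1 mouse embryonic stem cell line (F1G4, from a C57BL/6N x SV129 cross) carrying 3 constructs: *TRE::Foxa2-IRES-EGFP* at the Rosa26 locus, a *T::H2B-mCherry-T2A-irTA* BAC that makes the doxycycline (Dox)-dependent activator wherever *T* is active, and a *Noto::H2B-mTurquoise* BAC reporter. NMPdiff and NotoPdiff cells therefore shared the genotype, and NMPdiff carried the uninduced *Foxa2* transgene. Cells were grown in N2B27 medium with 10 ng/ml basic Fgf from day 1 to day 3 in all arms. NMPdiff received the Wnt pathway activator CHIR99021 from day 2 to day 3 without Dox and was collected on day 3 as T-positive, Noto-negative cells. NotoPdiff received CHIR99021 from day 2 to day 4 together with 1 ng/ml Dox, which induces *Foxa2*, and was collected on day 4 as Noto-positive, T-positive cells. Cultured mesoderm progenitors (MPdiff) had the day 4 schedule without Dox and the T-positive, Noto-negative gate, and their levels are given beside the others. Day of culture, length of CHIR99021 treatment, induced *Foxa2* and the *Noto* gate all differed between NotoPdiff and NMPdiff, and their parts in any difference cannot be told apart. In such bulk libraries fewer cells of a type and less RNA per cell cannot be told apart either.

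The notochord is the rod of axial mesoderm that lies under the neural tube, and its progenitors sit in the node and its caudal remnant. It is known as the source of Sonic hedgehog and of BMP antagonists that pattern the neural tube and somites, and it forms where the transcription factors T (Brachyury) and Foxa2 are made together. Neuromesodermal progenitors are the caudal epiblast cells that give rise to both spinal cord and paraxial mesoderm, and are usually recognised by joint expression of *T* and *Sox2* with *Nkx1-2* and *Cdx* genes.

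The genes of the 2 gates had the following RNA levels. *T*, whose BAC reporter gated both populations and also MPdiff, stood at 406 FPKM in NMPdiff, 375 in NotoPdiff and 25.8 in MPdiff. The *T* RNA level was thus far lower in MPdiff, although those cells were sorted as T-positive too. *Noto*, which gated NotoPdiff alone, stood at 0.515, 22.5 and 0 FPKM in the same order. *Foxa2* stood at 12.5 FPKM in NMPdiff without Dox, 95.5 in NotoPdiff and 1.22 in MPdiff, and the table does not separate transcripts of the transgene from those of the endogenous gene. These 3 genes are checks of the cultures. The notochord and floor plate list counts, and the counts of higher genes near paired Foxa2 and T summits, are given without them as well. Other counts that hold these genes are given only with them. The library labelled NMPdiff had the caudal genes *Nkx1-2* (41.5 FPKM), *Sp5* (71.1 FPKM) and *Cdx1* (14.0 FPKM), but its *Sox2* level was 1.07 FPKM and its *Cdx2* level was 3.49 FPKM. The same library had 269 FPKM of *Pou5f1*, 214 of *Mixl1* and 21.8 of *Nanog*. The *Sox2* side of the NMP definition was thus close to absent from the NMPdiff library, and the name NMPdiff is used below as a label.

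The 3 cultured libraries were alike in general terms. They had between 11273 and 11873 genes at 1 FPKM or more, their 10 most abundant genes took between 8.40% and 10.0% of the FPKM sum, and all 15 housekeeping genes stayed within 3-fold between NotoPdiff and NMPdiff, with a median log2 ratio of −0.14. Read depth is unknown from FPKM. The 9 libraries of the table were sequenced on different instruments (a NextSeq for the cultures and a HiSeq for the embryonic cells), and no ratio below crosses from a culture to an embryo.

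**Figure D1:**
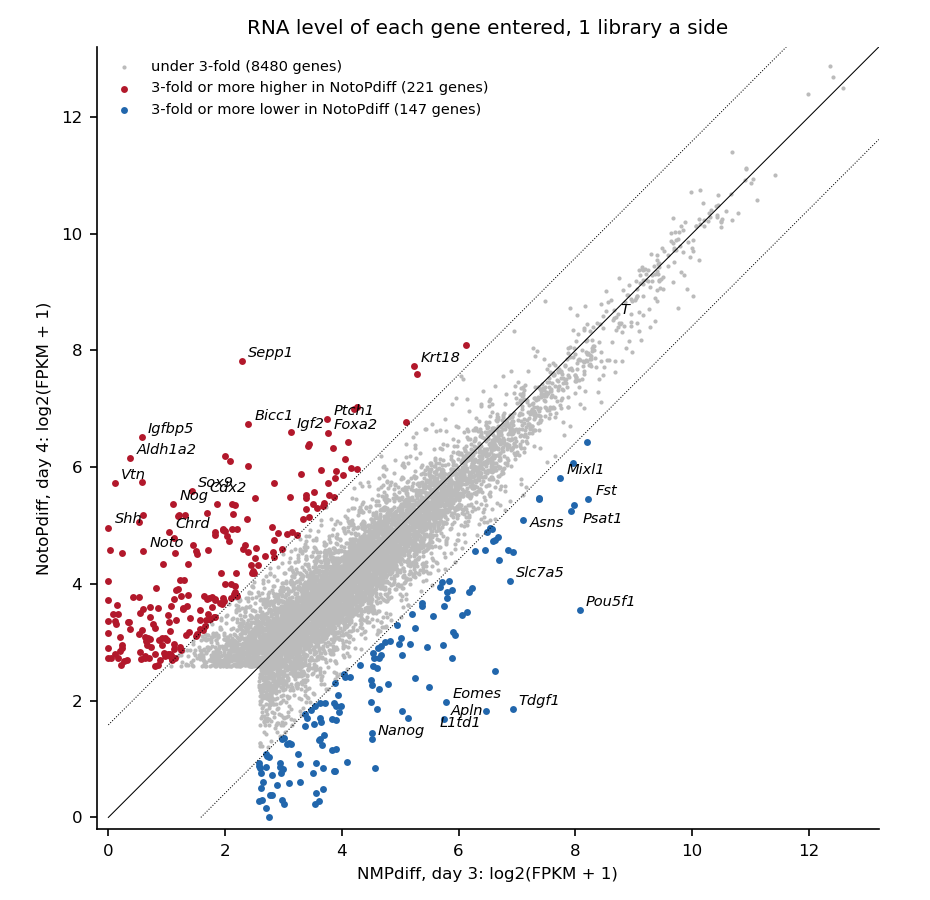
RNA level of each of the 8848 genes entered in NMPdiff (x axis) and NotoPdiff (y axis), both as log2(FPKM + 1), 1 library a side. The solid line marks equal levels and the dotted lines a 3-fold difference of FPKM + 1. The 221 red genes lie above the upper dotted line and the 147 blue genes below the lower one, while *T*, a gate for both libraries, lies near the line of equal levels.

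The spread of all ratios was narrow beside these members. The quartiles of the log2 ratio over all genes entered were −0.37 and 0.32, and the 5th and 95th percentiles were −0.99 and 1.09. Among the 221 higher genes, 115 were under 5-fold, 73 were between 5-fold and 10-fold and 33 were 10-fold or more, with a median of 4.96-fold. Among the 147 lower genes the same counts were 93, 45 and 9, with a median of 4.29-fold. The 3-fold limit fell in a continuous distribution: *Hdac11*, *Mme* and *Ptp4a3* lay just inside it at 3.00-fold, 3.02-fold and 3.02-fold higher, and *Fam118a*, *Foxp1* and *Gas6* lay just outside at 3.00-fold, 2.99-fold and 2.99-fold. On the lower side *Zfpm1*, *Lpcat4* and *Aars* lay just inside at 3.01-fold, 3.01-fold and 3.02-fold, and *Bscl2*, *9530027J09Rik* and *Lyar* just outside at 3.00-fold, 2.98-fold and 2.97-fold. All folds are ratios of FPKM + 1 and understate the change of genes at low levels. With 5 FPKM added in place of 1, the counts were 83 and 60, and 56 of the 146 members named by the rule of the methods no longer reached 3-fold, among them *Sox2*, *Gli1*, *Foxj1*, *Mnx1*, *Lmx1a*, *Hoxa3*, *Hoxb3*, *Sox17*, *Gsc* and *Mesp1*. The 64 higher and 66 lower genes that belong to the gene lists described below leave 157 higher and 81 lower genes outside them.

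The 15 genes with the largest ratios in the higher group were *Igfbp5*, *Aldh1a2*, *Vtn*, *Sepp1*, *Ppp1r1a*, *Shh*, *Kif26b*, *Rnaset2a*, *Frem1*, *Bicc1*, *Samd3*, *Nog*, *Trh*, *Sox9* and *Upk3a*. *Igfbp5*, a secreted binding protein for insulin-like growth factors, went from 0.484 FPKM in NMPdiff to 90.5 in NotoPdiff and stood at 0.223 in MPdiff, a log2 ratio of 5.95 (61.7-fold). *Sepp1*, the selenium transport protein selenoprotein P, was the most abundant of the 15 in NotoPdiff, at 224 FPKM against 3.88 in NMPdiff and 5.76 in MPdiff. *Vtn*, the adhesive matrix glycoprotein vitronectin, stood at 0.0821, 52.0 and 0.324 FPKM in NMPdiff, NotoPdiff and MPdiff. *Shh*, the Hedgehog ligand of the notochord, was listed at 0 in NMPdiff and in MPdiff and stood at 30.2 FPKM in NotoPdiff. Most of these 15 were low in both other cultures, but *Aldh1a2*, the enzyme that makes retinoic acid, was at 0.301 FPKM in NMPdiff, 70.3 in NotoPdiff and 364 in MPdiff, and *Kif26b* was at 0.503, 35.5 and 16.1 FPKM.

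Across all 221 higher genes the median level was 1.85 FPKM in NMPdiff, 14.0 in NotoPdiff and 3.88 in MPdiff, and 98 of the 221 reached 5 FPKM in MPdiff. Across the 147 lower genes the median was 21.9 FPKM in NMPdiff, 2.90 in NotoPdiff and 3.51 in MPdiff, and 67 reached 5 FPKM in MPdiff. These counts are 44.3% of the higher and 45.6% of the lower genes, against 87.2% of all genes entered. For MPdiff only levels are given.

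**Figure D2:**
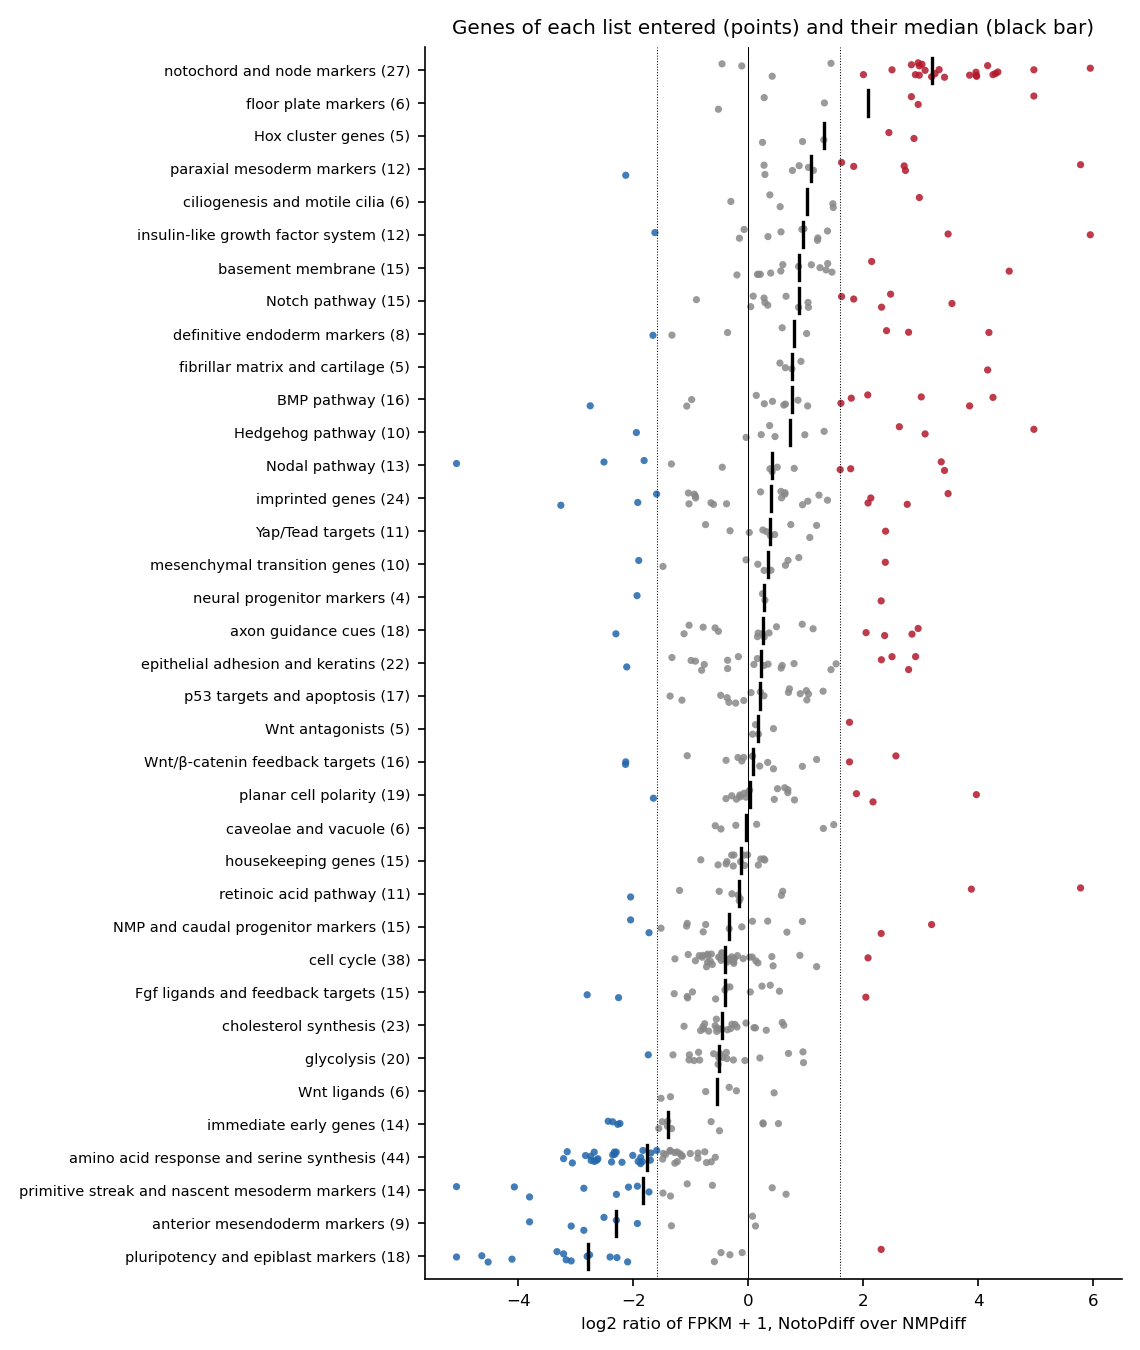
Log2 ratio of FPKM + 1 in NotoPdiff over NMPdiff (x axis) for the genes of each list with more than 2 genes entered, with the number entered in parentheses. Points are genes, red where 3-fold or more higher, blue where 3-fold or more lower and grey otherwise, black bars are list medians, and dotted lines mark 3-fold. The notochord and node list has the highest median, 3.19, and the pluripotency and epiblast list the lowest, −2.78, while the housekeeping median is −0.14.

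List medians of the log2 ratio ran from the notochord list down in steps. They were 2.08 for floor plate, 1.31 for Hox, 1.09 for paraxial mesoderm, 1.01 for cilia, 0.95 for insulin-like growth factor, 0.80 for endoderm, 0.76 for fibrillar matrix and 0.75 for BMP genes. Nearer to level were the Nodal (0.41), imprinted (0.39), Yap/Tead (0.38), mesenchymal (0.33), neural progenitor (0.27), guidance (0.26), epithelial (0.21), Wnt antagonist (0.18) and planar cell polarity (0.02) lists. Below level lay the retinoic acid (−0.16), Fgf (−0.41), Wnt ligand (−0.54) and anterior mesendoderm (−2.29) lists. The signs of the Nodal, neural progenitor and retinoic acid medians turned under another minimum or scaling, and the lateral mesoderm (2.09) and blood (1.02) medians rest on 2 genes each.

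Most transcription factors on the notochord and node list were higher. Apart from the gate and transgene genes *Noto* and *Foxa2*, the list members *Foxa1*, *Sox9*, *Mnx1*, *Lmx1a*, *Foxj1* and *Cdx2* all passed 3-fold. *Foxa1*, a forkhead factor related to *Foxa2*, stood at 1.57 FPKM in NMPdiff, 19.2 in NotoPdiff and 0.0955 in MPdiff. *Sox9*, the factor that drives cartilage and notochord sheath genes, stood at 1.69, 47.1 and 1.56 FPKM. *Mnx1* and *Lmx1a*, homeobox genes active in the notochord, stood at 10.2 and 9.31 FPKM in NotoPdiff against 0.123 and 0.0859 in NMPdiff and 0.0896 and 0.0130 in MPdiff. *Cdx2*, a caudal homeobox gene, was high in both day 4 cultures, at 3.49 FPKM in NMPdiff, 39.9 in NotoPdiff and 47.0 in MPdiff. *T* itself was level, and *Sox5* and *Sox6*, which act with *Sox9* in cartilage, stayed under 5 FPKM in both libraries (0.454 and 3.13 FPKM in NotoPdiff).

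The remaining higher members of the notochord list were secreted factors, receptors and structural genes. *Bicc1*, an RNA-binding protein of the node, stood at 4.28 FPKM in NMPdiff, 106 in NotoPdiff and 8.99 in MPdiff. *Cobl*, an actin nucleator, stood at 1.33, 35.4 and 0.958 FPKM, and *Samd3* at 0.172, 22.1 and 1.72 FPKM. Both showed the level of NotoPdiff standing far above the other cultures. *Cthrc1*, *Calca*, *Moxd1*, *Prickle2*, *Krt18* and *Slit2* also passed 3-fold, with ratios from 4.00-fold for *Moxd1* to 15.6-fold for *Prickle2*. The 4 entered members of the list that did not reach 3-fold were *T*, *Krt8* (66.1 to 181 FPKM), *Nodal* (18.1 to 24.5 FPKM) and *Car3* (10.5 to 7.39 FPKM). Summed over the 34 list genes in the table, the FPKM were 599 in NMPdiff, 1720.1 in NotoPdiff and 166 in MPdiff, with *T* the largest part in NMPdiff.

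In the Hedgehog pathway the ligand *Shh* and the transcriptional targets *Ptch1* and *Gli1* were higher. *Ptch1*, the Hedgehog receptor and itself a target of the pathway, stood at 12.4 FPKM in NMPdiff, 112 in NotoPdiff and 23.0 in MPdiff. *Gli1*, the other classical target, stood at 1.17, 12.4 and 1.82 FPKM. The signal transducer *Smo* (32.7 and 42.6 FPKM in NMPdiff and NotoPdiff), the effector *Gli3* (16.0 and 22.4) and *Sufu* (10.6 and 12.5) were within 3-fold. The co-receptor *Gas1*, which the pathway is known to repress, was lower, at 31.5 FPKM in NMPdiff and 7.42 in NotoPdiff. Of 10 entered genes 3 were higher and 1 lower, with a median log2 ratio of 0.72.

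The BMP list held both antagonists and ligands among its 6 higher genes of 16 entered. *Nog* and *Chrd*, the secreted BMP antagonists noggin and chordin, went from 1.16 and 1.05 FPKM in NMPdiff to 40.1 and 28.5 in NotoPdiff, and stood at 1.83 and 0.186 in MPdiff. Another antagonist, follistatin (*Fst*), which binds activins more strongly than BMPs, went the other way, from 295 to 43.0 FPKM, with 27.5 in MPdiff. The ligands *Bmp7* (9.52 to 43.4 FPKM), *Bmp5* (0.269 to 9.21), *Bmp4* (0.737 to 5.01) and *Gdf11* (1.82 to 7.61) were higher. Of these ligands only *Bmp7* was above 10 FPKM in NotoPdiff. *Bmpr1a* (31.9 and 35.2 FPKM) and *Smad1* (35.3 and 17.3 FPKM) did not reach 3-fold.

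The Nodal list was split, with 4 higher and 3 lower genes of 13 entered. *Dand5*, the Nodal antagonist of the node that acts in left-right asymmetry, went from 0.905 FPKM in NMPdiff to 19.3 in NotoPdiff. *Cfc1*, a Nodal co-receptor of the EGF-CFC family, went from 0.345 to 12.8 FPKM, while *Tdgf1*, the other co-receptor of that family and a gene of the epiblast and streak, went from 121 to 2.60 FPKM. The pair thus had opposite directions, and in MPdiff they stood at 6.58 and 2.46 FPKM. *Smad3* and *Furin*, an effector and a processing enzyme of the pathway, were 3.43-fold and 3.02-fold higher, and the antagonist *Lefty2* and the Nodal effector *Foxh1* were 5.70-fold and 3.51-fold lower. *Foxj1*, the regulator of motile cilia, was at 0.514, 10.9 and 0 FPKM in NMPdiff, NotoPdiff and MPdiff, and was the only higher gene among the 6 entered of 32 ciliogenesis and motile cilia genes. The axonemal dynein genes of that list stayed under the 5 FPKM minimum in both libraries, with *Dnah5* at 0.0367 FPKM in NMPdiff and 4.08 in NotoPdiff.

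Of 15 entered Notch pathway genes *Notch1*, *Notch2*, *Hey1*, *Hes7* and *Nrarp* were higher and none was lower, with a median log2 ratio of 0.87. The receptors *Notch1* and *Notch2* stood at 13.5 and 11.5 FPKM in NMPdiff and at 79.3 and 61.0 in NotoPdiff. *Hey1*, a Notch target repressor, went from 2.21 to 36.4 FPKM. The target *Hes1* (68.6 and 70.6 FPKM), the ligand *Dll1* (19.6 and 41.5 FPKM) and *Dll3* (29.2 and 35.9 FPKM) were within 3-fold.

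Retinoic acid and Hox genes gave another group of differences. Besides *Aldh1a2*, the retinol uptake receptor *Stra6* was higher (1.48 FPKM in NMPdiff, 35.4 in NotoPdiff, 16.2 in MPdiff), and *Cyp26a1*, the enzyme that breaks retinoic acid down, was lower (23.3, 4.87 and 7.15 FPKM). The other 8 of 11 entered genes of the pathway, among them the receptor *Rarg* and the binding proteins *Crabp1* and *Crabp2*, did not reach 3-fold. Only 5 of 39 Hox genes entered. *Hoxa3* and *Hoxb3* passed 3-fold, at 7.50 and 8.44 FPKM in NotoPdiff against 0.155 and 0.736 in NMPdiff, while *Hoxb1*, the most abundant Hox gene of NMPdiff at 23.5 FPKM, was within 3-fold. *Hoxa3* overlaps *Hoxa4*, *Hoxa5* and *Hoxa6* on the same strand, so its reads can be shared. In NMPdiff 36 of the 39 Hox genes were under 1 FPKM and in NotoPdiff 22 were. The summed Hox FPKM was 35.4 in NMPdiff, 99.2 in NotoPdiff and 318 in MPdiff.

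Wnt and Fgf genes showed few differences of 3-fold. None of the 6 entered Wnt ligands passed in either direction (*Wnt3a* at 11.8 and 6.65 FPKM), and of 5 antagonists only *Notum* did, at 2.75 and 11.7 FPKM. Among 16 entered Wnt/beta-catenin feedback targets *Nkd1* (8.91 to 57.7 FPKM) and *Notum* were higher, and *Myc* (21.5 to 4.12 FPKM) and *Msgn1* were lower, with a median log2 ratio of 0.07. *Lef1* (103 and 97.4 FPKM) and *Sp5* (71.1 and 74.8 FPKM) were close to level. In the Fgf list *Flrt3*, a membrane modulator of Fgf receptors, was higher (10.6 to 46.6 FPKM), and the epiblast ligand *Fgf5* (60.2 to 7.77 FPKM) and the feedback phosphatase *Dusp6* (114 to 23.1 FPKM) were lower, with 12 of 15 entered genes in neither group. *Fgf8* stood at 36.6 and 17.0 FPKM.

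Epithelial adhesion genes were mostly within 3-fold. *Cdh1* (E-cadherin) stood at 114 FPKM in NMPdiff, 88.5 in NotoPdiff and 11.1 in MPdiff, and *Epcam* at 81.0, 31.7 and 5.06 FPKM. *Cldn6*, a tight junction claudin, was higher, at 17.4, 126 and 3.38 FPKM in the same order, and the claudin *Cldn4* was lower, at 46.3, 9.92 and 2.14 FPKM. The keratin *Krt18* (36.7 to 212 FPKM) and the desmosomal *Dsp* (16.3 to 84.9 FPKM) were higher, and *Krt7* was listed at 0 in NMPdiff and stood at 6.51 FPKM in NotoPdiff. In all, 4 of 22 entered epithelial genes were higher and 1 was lower. In the mesenchymal transition list *Prrx1* was higher and *Cdh11* lower (13.5 to 2.88 FPKM), and 8 of 10 entered genes were within 3-fold. *Snai1*, a repressor of E-cadherin, stood at 40.2 FPKM in NMPdiff, 13.7 in NotoPdiff and 38.2 in MPdiff.

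Matrix, polarity and guidance genes followed with a few members each. Of 15 basement membrane genes entered, *Frem1* (0.440 to 32.4 FPKM) and *Frem2* (9.42 to 45.1 FPKM), related proteins of the basement membrane under epithelia, were higher, while the laminin *Lamb1* (76.7 and 101 FPKM) was not; the list median was 0.87. Few cartilage matrix genes reached the minimum: of 29 fibrillar matrix and cartilage genes listed, 5 entered, only *Sox9* passed, and *Col2a1* stood at 0.552 FPKM in NMPdiff and 4.05 in NotoPdiff. *Celsr1*, *Prickle2* and *Fzd6*, of the planar cell polarity pathway that orients cells within a sheet, were 3.68-fold, 15.6-fold and 4.49-fold higher, and *Prickle2* stood at 1.28 FPKM in NMPdiff and 34.7 in NotoPdiff. *Ror1* was lower, and the other 15 of 19 genes, such as *Vangl2* (18.2 and 29.9 FPKM), were within 3-fold. Among 18 guidance genes *Slit2* (4.74 to 43.4 FPKM), *Sema3e* (1.34 to 15.8), *Efnb1* (2.23 to 12.4) and *Efnb2* (7.68 to 43.9) were higher and the ephrin receptor *Epha1* (74.0 to 14.2) was lower.

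Insulin-like growth factor genes contributed 2 higher and 1 lower member of 12 entered. *Igf2*, the fetal growth factor, went from 7.71 FPKM in NMPdiff to 95.8 in NotoPdiff and stood at 181 in MPdiff. *Igfbp3* was lower (94.1 to 29.8 FPKM), in contrast to *Igfbp5*, and *Igfbp2* (42.4 and 99.2 FPKM) did not reach 3-fold. Of 38 cell cycle genes entered only *Cdkn1c*, the cyclin-dependent kinase inhibitor p57, passed, at 15.7 FPKM in NMPdiff, 69.7 in NotoPdiff and 19.5 in MPdiff. The list median was −0.41, with *Pcna* at 255 and 154 FPKM and *Top2a* at 174 and 152 FPKM. No gene of the caveolae and vacuole (6 entered), p53 target (17) or cholesterol synthesis (23) lists passed in either direction, with medians of −0.04, 0.21 and −0.46, and of the 11 Yap/Tead genes only *Tgfb2* did.

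Markers of neighbouring tissues were examined because the sort gates could hold other cells. Of 19 definitive endoderm markers listed, 8 entered: *Sox17* (0.599 to 7.46 FPKM), *Cldn6* and *Trh* (3.00 to 71.8 FPKM) were higher and *Gata6* was lower (5.58 to 1.08 FPKM). The endoderm genes *Hnf4a*, *Ttr*, *Apoa1* and *Pyy* were under 1 FPKM in both libraries, and the summed FPKM of the list was 251 in NMPdiff, 372 in NotoPdiff and 55.0 in MPdiff. *Cdh1*, *Epcam* and *Krt19* on that list are also made by the notochord lineage and epiblast. The part of endoderm cells in the *Sox17*, *Cldn6* and *Trh* levels was not tested. Of 16 floor plate markers, 6 entered, and *Foxa2*, *Shh* and *Slit2*, all also notochord genes, were higher. Without *Foxa2* 2 of 5 were higher, with a median log2 ratio of 1.32 in place of 2.08, and *Nkx6-1*, *Nkx2-2* and *Ferd3l* were under 1 FPKM in both libraries.

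Paraxial mesoderm markers were split, with 5 higher and 1 lower of 12 entered. *Aldh1a2*, *Meox1* (5.64 FPKM in NotoPdiff, listed at 0 in NMPdiff), *Pcdh19* (1.29 to 14.0), *Hes7* (2.42 to 11.2) and *Nrarp* (13.6 to 44.0) were higher, and *Msgn1*, the master regulator of presomitic mesoderm, was lower (52.7 to 11.2 FPKM). *Tbx6* stood at 11.1 FPKM in NMPdiff, 21.3 in NotoPdiff and 33.2 in MPdiff. The summed level of the 23 list genes was 184 FPKM in NMPdiff, 347 in NotoPdiff and 861 in MPdiff. The part of other mesoderm cells in the NotoPdiff levels was not tested. Of 20 lateral and intermediate mesoderm genes 2 entered and both were higher (5.09 FPKM for *Prrx1* and 5.01 for *Bmp4* in NotoPdiff), and *Hand1*, *Foxf1* and *Osr1* were under 1 FPKM in both libraries. No blood or endothelial marker passed 3-fold (2 of 12 entered). Of 20 neural progenitor markers *Sox2* was higher and *Zic2* lower, and *Sox1* and *Pax6* were under 1 FPKM in both libraries.

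The lower group was led by *Tdgf1*, *L1td1*, *Pou5f1*, *Pim2*, *Apln*, *Eomes*, *Pla2g1b*, *Gng3*, *Utf1*, *Olig1*, *Snurf*, *Slc7a3*, *Gm7334*, *Nanog* and *Ppp4r4*. *Pou5f1* (Oct4), the core pluripotency factor that the epiblast keeps until early somite stages, went from 269 FPKM in NMPdiff to 10.7 in NotoPdiff, a log2 ratio of −4.53, and stood at 13.1 in MPdiff. *Nanog* went from 21.8 to 1.54 FPKM and *Utf1* from 11.2 to 0.210, with 0.216 and 0.0375 in MPdiff. *L1td1*, an RNA-binding protein of pluripotent cells, went from 87.2 to 2.55 FPKM. The de novo DNA methyltransferase *Dnmt3b* was lower by 4.87-fold but stayed at 20.2 FPKM.

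The pluripotency and epiblast list had 13 lower genes of 18 entered, 1 higher and a median log2 ratio of −2.78. The higher gene was *Sox2*, which pluripotent, neural and notochord progenitor cells all use, at 1.07 FPKM in NMPdiff, 9.24 in NotoPdiff and 3.49 in MPdiff. The 4 genes within 3-fold were *Lin28a* (164 and 118 FPKM), *Lin28b*, *Trim71* and *Sall4* (66.6 and 61.7 FPKM), which many embryonic progenitors express. The naive pluripotency genes *Esrrb*, *Nr0b1* and *Prdm14* were under 1 FPKM in both libraries.

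Of 14 entered primitive streak genes 8 were lower and none higher, with a median log2 ratio of −1.83, and *Wnt3*, *Nodal*, *Fgf8*, *Snai1*, *Aplnr* and *Pdgfra* were within 3-fold. *Eomes*, the T-box factor of the early streak, went from 54.1 FPKM in NMPdiff to 2.94 in NotoPdiff, and *Mixl1* from 214 to 55.3, with 5.80 and 26.8 FPKM in MPdiff. *Mesp1* (14.9 to 2.76 FPKM), *Evx1* (22.3 to 6.02 FPKM) and the ligand *Apln* (52.9 to 2.21 FPKM) were also lower, while its receptor *Aplnr* stood at 50.2 and 79.7 FPKM. The anterior mesendoderm genes *Gsc* (11.2 to 1.49 FPKM), *Otx2* (13.7 to 0.742 FPKM) and *Lhx1* (37.0 to 4.23 FPKM) were lower, although *Foxa2*, with which they are expressed in the anterior midline, was higher. *Dkk1* (8.25 and 8.73 FPKM) and *Frzb* (20.4 and 22.3 FPKM) of that list were level.

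Caudal progenitor genes as a whole were close to level. Of 15 entered NMP and caudal progenitor markers, *Sox2* and *Cdx2* were higher, *Evx1* and *Cyp26a1* lower and 11 within 3-fold, with a median log2 ratio of −0.33. *Nkx1-2* stood at 41.5 FPKM in NMPdiff, 19.2 in NotoPdiff and 7.13 in MPdiff, *Wnt5b* at 14.6, 11.4 and 6.69 FPKM and *Sp5* at 71.1, 74.8 and 39.1 FPKM. The summed FPKM of the 20 genes was 703, 650 and 272 in the same order, with *T* the largest part.

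A further group of lower genes belonged to amino acid supply. This list of 48 genes, most of them known targets of the stress factor Atf4 or members of serine, one-carbon and aminoacyl-tRNA metabolism, was written after such genes had been seen among the lower ones, so its count is a description of a chosen set. Of 44 entered genes 25 were 3-fold or more lower, none was higher, and the median log2 ratio was −1.77. *Asns*, which makes asparagine, stood at 244 FPKM in NMPdiff, 37.2 in NotoPdiff and 56.4 in MPdiff. The serine synthesis enzymes *Phgdh*, *Psat1* and *Psph* went from 86.7, 251 and 35.0 FPKM to 23.0, 40.1 and 6.84 in NotoPdiff, with 30.8 and 91.5 for the first 2 in MPdiff. The transporters *Slc7a5*, *Slc7a3* and *Slc7a1* were 7.12-fold, 9.28-fold and 6.69-fold lower, and the mitochondrial one-carbon enzymes *Shmt2* and *Mthfd2* 5.01-fold and 6.21-fold. *Trib3* and *Chac1*, induced in the same response, were at 10.8 and 13.6 FPKM in NMPdiff and at 0.332 and 0.744 in NotoPdiff. *Atf4* itself stood at 183 FPKM in NMPdiff, 66.7 in NotoPdiff and 82.5 in MPdiff and did not reach 3-fold. The summed level of the list was 2997 FPKM in NMPdiff, 877 in NotoPdiff and 1269 in MPdiff. The collection day differed between the libraries, and its part in these levels cannot be told apart.

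**Figure D3:**
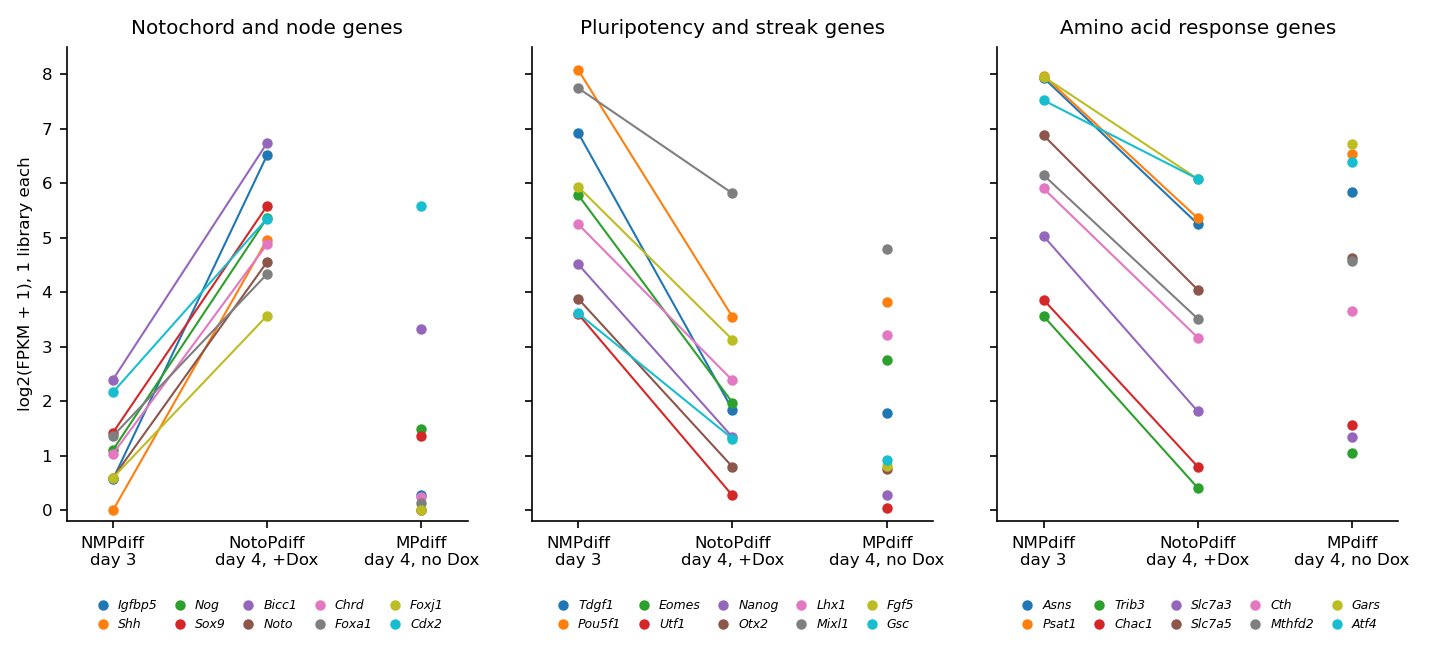
Level of 10 notochord and node genes, 10 pluripotency and streak genes and 10 amino acid response genes, as log2(FPKM + 1), in NMPdiff, NotoPdiff and MPdiff (1 library each). Lines join NMPdiff with NotoPdiff, and MPdiff points stand alone. The notochord genes are higher in NotoPdiff and, apart from *Cdx2* and *Bicc1*, near the bottom in MPdiff, while every gene of the other groups is lower in NotoPdiff and in MPdiff than in NMPdiff.

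Of 14 entered immediate early genes, which respond within minutes to handling or signals, 4 were lower and none higher. The 4 were *Fos* (23.8 to 3.58 FPKM), *Atf3* (8.69 to 0.887), *Nr4a1* (13.9 to 2.16) and *Zfp36* (11.3 to 1.54), and the median log2 ratio was −1.41, while *Egr1* (70.5 and 44.6 FPKM) and *Jun* (13.8 and 20.2 FPKM) did not pass. Of 20 glycolysis genes only the lactate exporter *Slc16a3* was 3-fold lower, but the list median was −0.50, with *Ldha* at 862 FPKM in NMPdiff, 423 in NotoPdiff and 681 in MPdiff.

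Some members rest on reads that the table cannot assign with certainty. *Rnaset2a* (0.0184 to 22.9 FPKM) has a near-identical copy, *Rnaset2b*, and *Dcpp1* and *Dcpp3* (7.97 and 12.2 FPKM in NotoPdiff, both listed at 0 in NMPdiff) belong to a cluster of similar genes. *Snurf* (44.2 to 3.71 FPKM) and *Snrpn* (88.8 to 28.7 FPKM) share 1 transcript unit, and 5 of the 368 members are small RNA genes whose reads may be shared with host genes. Imprinted genes, a list also written after the values were seen, went both ways. Of 24 entered, *Igf2*, *Cdkn1c*, *Nnat* (18.2 to 129 FPKM) and *Airn* were higher and *Peg3* (166 to 43.1 FPKM), *Snurf* and *Snrpn* lower.

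The embryonic libraries, which played no part in choosing the genes, gave a separate view. Those compared came from the caudal tissue of embryos at E8.5 and at E9.5 (F1G4 cells with *T::H2B-Venus*, *Noto::H2B-mCherry* and *Foxa2::H2B-mTurquoise* BACs). They hold sorted notochord progenitors (NotoP, positive for all 3 reporters) and mesoderm progenitors (MP, positive for T alone), 1 library per stage and type. Trunk notochord, also 1 library per stage and positive for all 3 reporters, is given for levels only. For it the paper lists fewer sorted cells than for NotoP of either stage. Of the 221 higher genes 148 (67.0%) had more FPKM in NotoP than in MP at both stages, against 30.7% of all genes entered (*Noto* and *Foxa2*, sort gates in the embryo too, are among the 148), and 25 (11.3%) had less at both stages, against 28.1%. A 3-fold excess in NotoP at both stages was seen in 63 (28.5%) of them and in 2.22% of all genes entered. In the E8.5 pair of libraries NotoP exceeded MP by a median of 1.54 (log2) over these genes and in the E9.5 pair by 1.10, against 0.05 and 0 over all genes entered. The MP library of E8.5 stood apart. For it the paper lists far fewer sorted cells, and fewer reads, than for the other embryonic NotoP and MP libraries. In it 793 of the 8848 genes entered and 65 of the 221 higher genes were listed at 0. NotoP of that stage had 172 and 8 such genes, and MP of E9.5 had 148 and 23. A 0 in the E8.5 MP library therefore does not show absence, and the part of these zeros in the E8.5 values was not tested. At E9.5 alone 171 higher genes (77.4%) had more FPKM in NotoP, against 49.6% of all genes entered, and 82 (37.1%) had 3-fold more, against 3.74%. The embryonic MP cells are not NMPs, so this sets the culture difference beside another contrast.

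Named members showed how unequal the embryonic levels were. *Shh* stood at 161 FPKM in NotoP at E8.5 and 178 at E9.5, against 0 and 0.343 in MP, and *Bicc1* at 159 and 54.2 against 0 and 5.16. *Igfbp5* was at 151 and 122 FPKM in NotoP, 10.6 and 4.61 in MP and 455 and 445 in trunk notochord. *Sepp1* was at 118 and 55.8 FPKM in NotoP and 12.8 and 3.38 in MP. All these were high in NotoP at both stages. Others were not: *Trh* was at 4.09 and 0.465 FPKM in NotoP, and 5 higher genes, *Dcpp1*, *Dcpp3*, *Snord85*, *Klhl4* and *Gpx2*, were under 1 FPKM in all 4 NotoP and MP libraries. Among the 25 genes with less in NotoP at both stages were *Igf2* (307 and 345 FPKM against 443 and 636 in MP) and *Pcdh19* (17.0 and 7.80 against 52.9 and 48.4), both of which were also at higher levels in MPdiff than in NotoPdiff. Beyond the named members, *Ifitm1*, *Greb1l* and *Sparcl1*, chosen here after their values were seen, also had less in NotoP at both stages.

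Of 147 lower genes 33 (22.4%) had less FPKM in NotoP than in MP at both stages, against 28.1% of all genes entered, and 24 (16.3%) had more, against 30.7%. At E9.5 alone 71 (48.3%) had less, against 49.5% of all. Of the 147, 37 (25.2%) were under 1 FPKM in all 4 NotoP and MP libraries, against 1.16% of all genes entered, among them *Tdgf1*, *Pou5f1*, *Nanog*, *Utf1* and *Gsc*. The 3 lower genes (2.04%) with 3-fold less in NotoP at both stages were *Gas1*, *Zic2* and *Timp1*, against 0.328% of all genes entered. There were 5 lower genes (3.40%) with 3-fold more, against 2.22% of all, among them *Mixl1*, *Klf5*, *Dennd2c* and *Tdrd5*. *Mixl1* stood at 61.0 and 44.7 FPKM in NotoP and at 5.67 and 4.00 in MP, so this streak gene, lower in NotoPdiff than in NMPdiff, was present in embryonic notochord progenitors. Several of these names (*Timp1*, *Klf5*, *Dennd2c*, *Tdrd5*) were taken after their values were seen. Amino acid response genes were not absent from the embryo: *Psat1* was at 38.2 and 37.7 FPKM in NotoP and at 111 and 109 in MP, and *Asns* at 15.2, 17.0, 39.1 and 39.6.

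**Figure D4:**
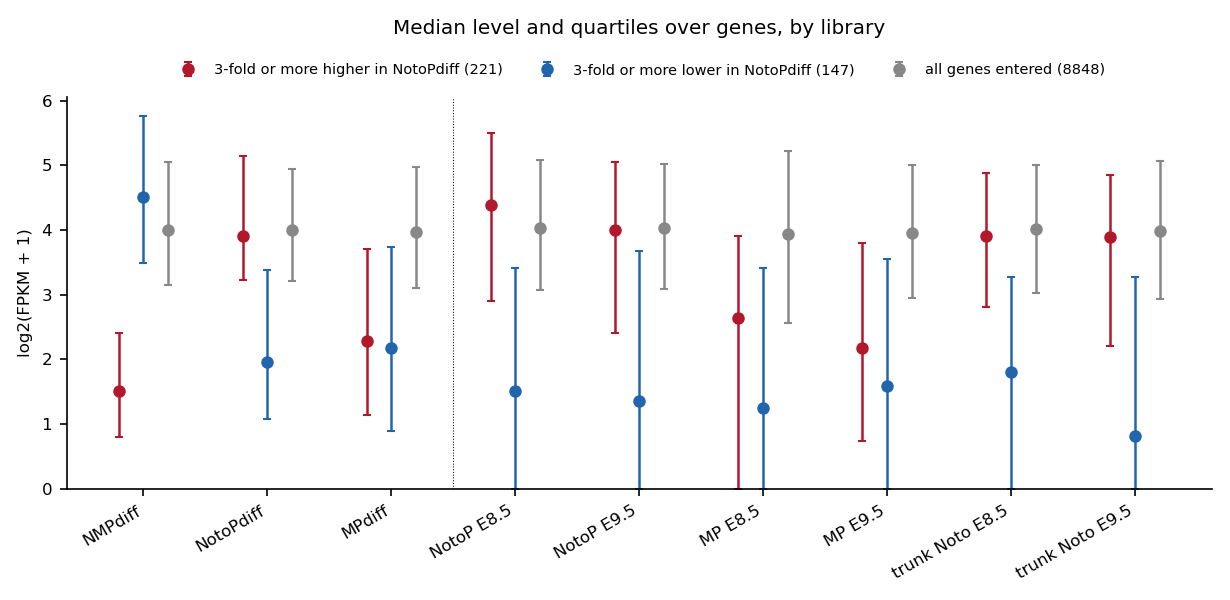
Median level (points) and lower to upper quartile (bars) over genes, as log2(FPKM + 1), in each of the 9 libraries, for the 221 higher genes (red), the 147 lower genes (blue) and all 8848 genes entered (grey). The dotted line separates cultures from embryonic cells. The higher genes have medians of 20.0 and 15.1 FPKM in embryonic NotoP and 5.21 and 3.49 in MP at E8.5 and E9.5, and the lower genes stay between 0.75 and 2.50 FPKM in all 6 embryonic libraries.

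Binding of Foxa2 and T was another readout that played no part in choosing the genes. It came from the same culture condition as the NotoPdiff RNA, so it is not independent of that condition. The peaks were called from chromatin immunoprecipitation on bulk cultures enriched for NotoPdiff, in which Dox had induced *Foxa2*, with 22684 Foxa2 peaks and 6875 T peaks, and distances were measured from each peak's summit to the gene's start site on mm10 (220 of 221 higher, 145 of 147 lower and 8785 of 8848 entered genes could be placed). A Foxa2 summit lay within 50 kb of the start site in 176 (80.0%) of the higher genes, 87 of the 145 placed lower genes and 59.2% of all genes entered. A T summit did so in 135 (61.4%) of the higher genes, 52 (35.9%) of the lower genes and 31.6% of all. Within 5 kb the T shares were 20.9%, 7.59% and 7.80% and the Foxa2 shares 21.4%, 11.0% and 10.6%. The lower genes were thus near the level of all genes for both factors. Neither peak lay within 50 kb in 27 higher genes (12.3%), among them *Vtn*, *Trh*, *Igf2*, *Stra6* and *Prickle2*. The same share was 29.0% of the lower genes and 30.2% of all genes entered. T peaks of NMPdiff were not analysed here.

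Places where both summits fell together were counted next. There were 1225 pairs of a Foxa2 and a T summit within 200 bases. Such a pair lay within 50 kb of the start site in 49 of 220 higher genes (22.3%), in 1 of 145 lower genes (0.690%, *Dnmt3b*) and in 5.12% of all genes entered. Within 5 kb, 12 higher genes (5.45%) had a pair, among them *Samd3*, *Chrd*, *Cfc1* and *Foxa2*, against none of the lower genes and 0.672% of all. Without *Noto* and *Foxa2* the higher counts were 47 of 218 (21.6%) within 50 kb and 11 (5.05%) within 5 kb. Of 32 higher genes that belong to the notochord list or to the 15 largest ratios and could be placed, 11 had a pair within 50 kb. Several peaks can fall near 1 gene and 1 peak near several genes, so these are shares of genes and not of independent sites.

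**Figure D5:**
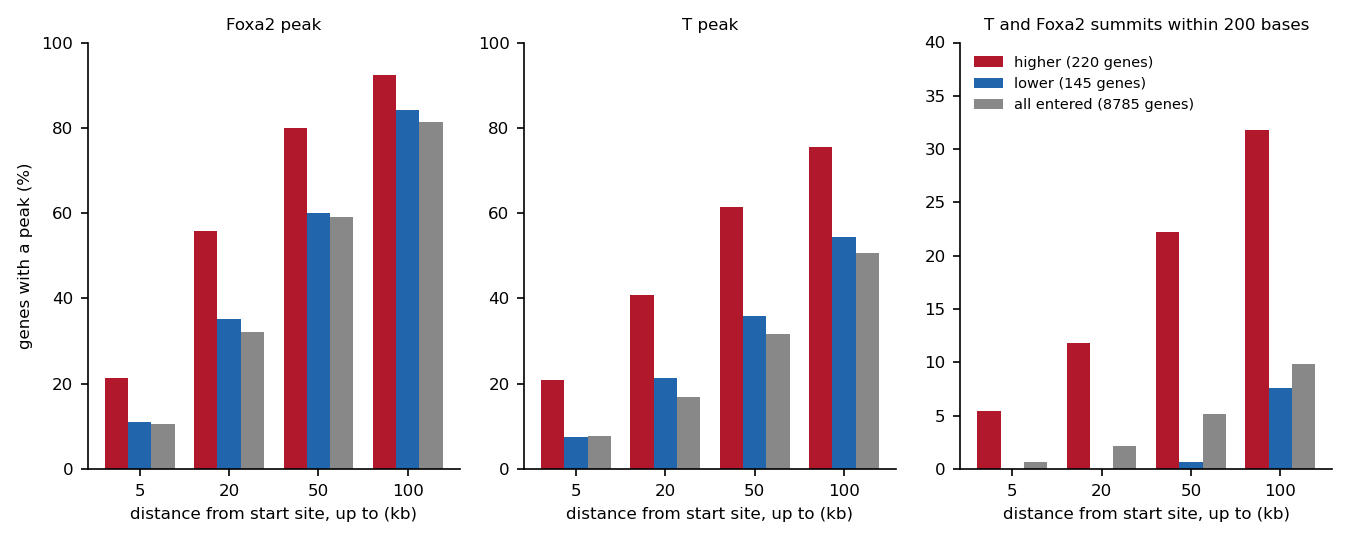
Share of genes with a summit within 5, 20, 50 or 100 kb of the start site (x axis) for Foxa2 peaks, T peaks and places where both summits lie within 200 bases (the last panel has its own y axis), in the higher genes (220 placed), the lower genes (145) and all genes entered (8785). The higher genes exceed both other groups at every distance, with 22.3% against 0.690% and 5.12% at 50 kb in the last panel.

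Sequence is shown for 8 of these 11 genes, because it is where expression and binding meet. *Noto* and *Foxa2* were left out as gate and transgene genes, and *Foxj1* because its site lies nearer to the start of another coding gene, *Exoc7*. Each line gives 121 bases of the plus strand of mm10 centred on the Foxa2 summit. Capitals mark forkhead letters and T half-site letters, searched on both strands. The forkhead search took TGTTTAC as its main form, with TATTTAC as another, then TGTTTGC as well as the form TATTTGC and finally the form TGTTGAC. The T-box search took TCACAC. The *Sepp1* window (chr15:3232551-3232671) lies between genes, 35.9 kb upstream of the start site. The *Ppp1r1a* window (chr15:103551118-103551238) lies between genes, 13175 bases upstream. The *Shh* window (chr5:28459437-28459557) lies in an intron of *Shh* and of *9530036O11Rik*, 7.76 kb from its start. The *Bicc1* window (chr10:71197463-71197583) lies 37.8 kb upstream, in an intron of *1700113B09Rik*. The *Samd3* window (chr10:26228392-26228512) lies between genes, 1.25 kb upstream. The *Nog* window (chr11:89287741-89287861) lies between genes, 14.5 kb from the start on the far side of the gene. The *Chrd* window (chr16:20729995-20730115) lies 3.07 kb upstream, in an intron of *Thpo*, which is itself a higher gene. The *Slit2* window (chr5:48003951-48004071) lies in an intron of *Slit2* and of *4930518C09Rik*, 20.9 kb from its start.
Sepp1: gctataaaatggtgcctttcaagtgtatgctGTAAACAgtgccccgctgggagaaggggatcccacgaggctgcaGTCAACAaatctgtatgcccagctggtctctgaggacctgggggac
Ppp1r1a: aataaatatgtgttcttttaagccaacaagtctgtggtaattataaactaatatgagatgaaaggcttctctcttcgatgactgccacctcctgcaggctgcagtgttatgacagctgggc
Shh: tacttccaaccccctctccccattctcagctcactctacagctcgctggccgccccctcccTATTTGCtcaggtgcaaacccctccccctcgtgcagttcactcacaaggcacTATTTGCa
Bicc1: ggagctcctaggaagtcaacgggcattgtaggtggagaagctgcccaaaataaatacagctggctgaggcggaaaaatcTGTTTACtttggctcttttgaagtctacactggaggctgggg
Samd3: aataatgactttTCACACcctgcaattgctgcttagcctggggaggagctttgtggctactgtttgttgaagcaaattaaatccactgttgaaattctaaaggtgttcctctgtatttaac
Nog: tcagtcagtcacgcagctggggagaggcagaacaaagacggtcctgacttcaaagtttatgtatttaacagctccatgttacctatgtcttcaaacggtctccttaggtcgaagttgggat
Chrd: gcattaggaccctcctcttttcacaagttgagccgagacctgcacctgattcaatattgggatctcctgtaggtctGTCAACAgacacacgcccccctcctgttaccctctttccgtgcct
Slit2: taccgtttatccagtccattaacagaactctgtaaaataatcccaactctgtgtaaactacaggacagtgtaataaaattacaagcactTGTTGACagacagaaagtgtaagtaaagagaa

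The joint sites had fold enrichments over background of 9.96 for Foxa2 and 4.52 for T at *Sepp1*, 9.30 and 13.4 at *Ppp1r1a*, 7.73 and 4.35 at *Shh*, 12.3 and 4.95 at *Bicc1*, 13.4 and 20.2 at *Samd3*, 9.83 and 12.9 at *Nog*, 11.8 and 5.28 at *Chrd* and 14.4 and 17.1 at *Slit2*. Over all 11 windows, forkhead letters were present in 7, the T letters in 2 (*Samd3* and *Foxj1*) and neither in 3 (*Ppp1r1a*, *Nog* and *Foxa2*). The windows reach 60 bases to each side of the Foxa2 summit, and in 3 of them (*Shh*, *Samd3* and *Chrd*) the T summit lies outside. Over 1224 joint windows of the same length that lay on the chromosomes read, 677 (55.3%) held forkhead letters and 206 (16.8%) the T letters, against 37.1% and 14.2% over 22680 windows at all Foxa2 summits and 25.7% and 25.4% over 6871 windows at T summits. Windows 2 kb away from the joint summits held them in 11.1% and 5.72%. A match is a description of the letters and not a binding site shown to act.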

How the data were processed

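The deposited table holds FPKM values per gene, made by the authors: NuGEN Ovation SoLo libraries with molecular identifiers, TopHat2 2.1.1 (with Bowtie 1.2.2) mapping to mm10 (strand-specific), duplicate removal with NuDup, and Cufflinks 2.2.1 with bias and multi-read correction. FPKM keep no depth. The deposited narrowPeak files were made by the authors with Bowtie 1.3.1 and MACS3 3.0.0b1 (q up to 0.1), and hold fold enrichment ratios, scores, −log10 p-values and −log10 q-values per peak, with 1 library per factor. From these, log2 ratios with a pseudocount of 1 FPKM, a minimum of 5 FPKM and a 3-fold limit were computed in Python 3.11.15 (pandas 2.3.3, numpy 2.4.6). The rule was tested on simulated data with strong changes in well expressed genes only. That test did not cover genes at low levels or near the limit. Start sites came from GENCODE M21 (GRCm38), matched by symbol or RefSeq synonym (23587 of 23983 genes). Sequences were read from RefSeq GRCm38.p6. The members and lists were chosen with earlier results of these data known. Named genes were the 15 largest ratios in each direction, list genes past 3-fold and up to 4 others per list, 3 genes at each side of the limit and the gate genes. Further genes in the text were picked with their values in view. The alternatives were other pseudocounts, minimums, limits, scalings and distances. A few genes are not reported here. No test was possible with 1 library a side.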

Additional observations from a re-analysis of the deposited data

How the results depend on the processing

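With 1 library a side no replicate could be left out. No paired analysis was possible either, because each group had 1 library. Of 110 alternative values of the main counts and shares 71 were within the set tolerance (1.5 times for counts, the 95% Wilson interval for shares) and 39 were not. The 221 higher and 147 lower genes became 83 and 60 with a pseudocount of 5 FPKM. They became 512 and 430 at a 2-fold limit and 106 and 54 at a 5-fold limit. With the FPKM of each library rescaled to an equal, larger sum, the counts were 494 and 258. The sums before rescaling were 403572 in NMPdiff and 382505 in NotoPdiff. The pseudocount and minimum stayed at 1 and 5 FPKM, so both were smaller beside the rescaled values. Genes entered rose from 8848 to 11150, and the median of all ratios moved from −0.03 to 0.07. The parts of the equal sum and of these smaller settings in the counts were not told apart. With a minimum of 10 FPKM the higher count was 147. Median-of-ratios scaling gave 224 and 140, with 220 and 140 of the reported genes. The share of higher genes with more FPKM in embryonic NotoP at both stages (67.0%) was 80.7% with a pseudocount of 5, 60.2% with a minimum of 1 FPKM or none, 73.6% at 5-fold, 57.9% after rescaling, 75.1% at E8.5 alone, 77.4% at E9.5 alone and 28.5% for a 3-fold excess. The share of lower genes with less (22.4%) was 31.7% with a pseudocount of 5, 32.1% at 2-fold, 13.0% at 5-fold, 13.6% after rescaling, 36.7% and 48.3% at E8.5 and E9.5 alone and 2.04% for a 3-fold deficit. For Foxa2 peaks the shares of higher and lower genes, reported within 50 kb, were 21.4% and 11.0% within 5 kb, 55.9% and 35.2% within 20 kb and 92.3% and 84.1% within 100 kb. For T peaks (61.4% and 35.9%) they were 20.9% and 7.59%, 40.9% and 21.4%, and 75.5% and 54.5%, and the higher share was 72.3% with a pseudocount of 5, 49.6% at 2-fold and 49.3% after rescaling. At q of 0.001 or less the T shares were 60.5% and 33.1%, against 28.0% of all genes entered. Within 5, 20 and 100 kb the Foxa2 shares over all genes entered were 10.6%, 32.0% and 81.3%. The T shares over all were 7.80%, 16.8% and 50.6%. Shares over other distances are set by the window itself, and shares at 1 stage alone or for a 3-fold excess or deficit measure another quantity. The interval treats genes as independent, which they are not, so it served as a tolerance and not as a test. The cause of the other changes was not tested. Of the 146 named members, 5 were under 3-fold with median-of-ratios scaling and 3 after rescaling. Leaving out the gate and transgene genes, chosen after seeing the data, gave medians of 3.22 for the notochord and 1.32 for the floor plate list. Lists whose median changed sign in some setting were those of blood and endothelial, neural progenitor, Nodal, Wnt target, retinoic acid and caveolae genes.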

Other observations

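Outside the lists, the higher genes in NotoPdiff included surface proteins, transcription factors and enzymes, all named here after their values were seen. *Itga6*, the laminin receptor integrin alpha 6, stood at 16.9 FPKM in NMPdiff, 62.6 in NotoPdiff and 6.22 in MPdiff. *Gpc3*, a glypican, was the most abundant higher gene in NotoPdiff at 273 FPKM, with 68.8 in NMPdiff and 512 in MPdiff. *Foxd1* (0.102 to 11.4 FPKM) and *Prox1* (3.00 to 29.1 FPKM), developmental transcription factors, were at 0.795 and 1.17 FPKM in MPdiff. *Hsd11b2*, an enzyme that inactivates glucocorticoids, went from 0.0581 to 10.1 FPKM and stood at 32.1 and 42.1 FPKM in embryonic NotoP against 0 and 3.96 in MP. *Ddx58*, the cytoplasmic RNA sensor RIG-I, went from 1.86 to 21.7 FPKM and stood at 26.5 and 15.5 FPKM in embryonic NotoP against 1.58 and 1.67 in MP.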
